A study of Homo sapiens with 9 samples.

Results

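The comparison set cells given 2-APB against cells given SKF-96365, with 3 libraries for each compound, so that 6 of the 9 libraries of the series were compared and the 3 control libraries gave the background. All 9 were RNA-seq libraries of a human line labelled HepG2, a hepatocellular carcinoma line. Libraries were assigned by their treatment label, which reads 2-APB, SKF96365 or, for the controls, NULL. Samples labelled 2-APB are titled ABP, and their columns carry the name TRPV2, so what that name stands for was taken from the treatment label alone. Neither the dose nor the duration of exposure, the vehicle, the batch or the culture is given for either compound. Doses and times may therefore differ, and every difference reported here is between these sets of libraries, not between matched doses. P-values measure only the spread between these samples, which may be technical. In bulk samples, fewer cells of a type and less RNA per cell cannot be told apart.

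2-APB (2-aminoethoxydiphenyl borate) is a borinate ester that blocks inositol trisphosphate receptors and store-operated calcium entry and opens several TRPV channels. SKF-96365 is an imidazole compound that blocks store-operated and receptor-operated calcium entry, including entry through TRPC channels. The compounds belong to different chemical classes and share calcium entry as a site of action. The series presents 2-APB as an agonist and SKF-96365 as an inhibitor of TRPV2, a calcium-permeable cation channel of the plasma and endosomal membranes. Calcium entering the cytosol is known to act on immediate early genes through CREB, NFAT and MAP kinases, and on progression from G1 to S phase.

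Values are gene counts that the authors divided by a size factor for each library, and levels are given below as normalized counts in the order library 1, 2 and 3. Differences are log2(2-APB) minus log2(SKF-96365), each of the normalized count plus 1, so that a negative value means a higher level with SKF-96365. A gene was called separated when all 3 libraries of one compound lay above all 3 of the other. The gap is the log2 distance between the nearest libraries of the compounds. Depth ran from 14786059 to 19026545 reads per library, with 6.90% to 8.04% of the signal in mitochondrially encoded genes. Over the 17492 genes tested, libraries did not group by compound alone. Pearson's r was 0.990 between 2-APB 1 and 2 and 0.989 between SKF-96365 2 and 3. SKF-96365 1 stood nearest to 2-APB 3 (r = 0.988) and farther from SKF-96365 2 and 3 (0.972 and 0.971). 2-APB 3 in turn was nearer to SKF-96365 1 and to control 1 (0.986) than to 2-APB 1 and 2 (0.980 and 0.981). Control 3 stood with SKF-96365 2 and 3 (0.988 and 0.986). Whether labels were exchanged between libraries was not tested, and if any were, the group differences below would not be differences between the treatments named. Groups are given as labelled. Most hepatocyte secretory genes looked at were near 0 in all 9 libraries, with the albumin gene ALB at 0 to 11.8. SERPINA1 was the highest, at 207 to 523, and APOE was at 7.10 to 76.4. Among hepatocyte factors HNF4A was at 0 to 2.58 and FOXA1 at 29.8 to 103. The epithelial keratin gene KRT18 was at 32910 to 49656, but the epithelial surface genes EPCAM and CDH1 were at 2.19 to 19.8 and 13.1 to 101. The mesenchymal filament gene VIM was at 25957 to 44039, and the collagen gene COL1A2 at 5.24 to 25.6. The leukocyte markers PTPRC, CD3E and CD68 were at most 6.94, and the endothelial markers PECAM1, CDH5 and VWF at most 13.6, with KDR at 47.0 in control 3 alone. CD14 was at 35.5 to 81.6.

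No gene passed limma's test between the compounds at an adjusted p under 0.05 (0 higher with 2-APB and 0 higher with SKF-96365, percent called 0), and the smallest adjusted p in limma was 0.684. At an unadjusted p under 0.05 there were 1277 genes (7.3%). With 8 libraries whose reads were recovered, the count was 0 in edgeR, with 492 at an unadjusted p under 0.05, and 1 in DESeq2, with 483. That gene was SNRPGP10, a processed pseudogene of a spliceosomal protein gene, named here after its values were seen. It stood at 12.1, 17.2 and 14.8 with 2-APB and at 107, 53.5 and 25.8 with SKF-96365 (DESeq2 log2 difference -2.44, adjusted p = 0.0385, in a fit without SKF-96365 3), and limma gave -1.80 (SE 0.49). With the control libraries left out of the estimate of the spread, limma called 4 genes, all of them histone genes higher with SKF-96365, which are described below.

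Without a test, 2973 genes (17%) separated the compounds. Of these 1436 (8.21%) were higher with 2-APB and 1537 (8.79%) were higher with SKF-96365. The same count was 1325 genes (7.57%) for 2-APB against control and 1085 (6.2%) for SKF-96365 against control. Most gaps were narrow. The median gap was 0.09 log2 units among genes higher with 2-APB and 0.11 among those higher with SKF-96365, and 201 (14%) and 372 (24.2%) gaps exceeded 1.96 standard errors of counting of the nearest libraries. Wide gaps were mostly on the SKF-96365 side. A gap of at least 0.5 was found in 57 genes higher with 2-APB and 109 higher with SKF-96365, and a gap of at least 1 in 1 and 18. The 1 gene with 2-APB was MPHOSPH8, a subunit of the HUSH silencing complex, at only 9.87, 9.45 and 12.8 against 3.49, 3.08 and 1.98, named after its values were seen. For 3 libraries against 3 an exact permutation test of a single gene cannot give a p below 0.10, so separation of a single gene is a description. A share of 0.10 is also what exchangeable labels would give on average for separation in either direction. Both shares against control, 7.57% and 6.2%, were below it. Whether the 17% between the compounds exceeds it was not tested, and these counts are not counts of responding genes.

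Among genes with a mean of at least 50, the 3 widest gaps belonged to genes of histone H2B, one of the core histones around which DNA is wound, and these were higher with SKF-96365. Replication-dependent histone genes lie in clusters, are read mainly in S phase, and mostly give messages without a poly(A) tail. Whether the library kit selected poly(A) RNA is not stated in the sources used here, nor is the strand setting of the counting. H2B genes are near-identical copies, and the authors' counting could have split reads between them. Promoters of the 4 H2B genes with the widest gaps are shown because these genes moved together and H2B promoters are known for the octamer, ATTTGCAT, which the factor OCT1 binds. Each line gives the 150 bases before the RefSeq start on GRCh38.p14, 5′ to 3′ on the gene's strand, with the octamer in capitals. They are chr1:149886683-149886832 (minus strand) for H2BC21, chr6:26123927-26124076 (minus) for H2BC4, chr6:26216689-26216838 (minus) for H2BC8 and chr6:26199366-26199515 (plus) for H2BC7.
H2BC21: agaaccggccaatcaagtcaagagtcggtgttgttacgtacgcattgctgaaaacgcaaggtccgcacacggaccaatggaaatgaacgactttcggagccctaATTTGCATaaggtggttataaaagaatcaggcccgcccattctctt
H2BC4: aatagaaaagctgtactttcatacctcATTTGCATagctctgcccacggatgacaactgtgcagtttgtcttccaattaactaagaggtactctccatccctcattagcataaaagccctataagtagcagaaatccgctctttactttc
H2BC8: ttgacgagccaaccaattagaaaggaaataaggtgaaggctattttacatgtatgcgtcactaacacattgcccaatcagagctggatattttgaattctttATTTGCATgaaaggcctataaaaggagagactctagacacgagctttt
H2BC7: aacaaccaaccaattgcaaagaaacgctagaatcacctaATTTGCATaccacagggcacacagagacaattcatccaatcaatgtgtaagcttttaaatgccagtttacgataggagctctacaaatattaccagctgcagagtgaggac
The octamer begins 46 and 48 bases before the start in H2BC21 and H2BC8, and 123 and 111 bases before it in H2BC4 and H2BC7. Searched on both strands in the 250 bases before each start, it was found in 573 of 35116 RefSeq windows (1.63%).

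H2BC21 stood at 115, 104 and 62.1 with 2-APB and at 439, 756 and 779 with SKF-96365, and at 91.6, 69.0 and 744 in the controls. All 3 SKF-96365 libraries and control 3 lay far above the other 5. The gap was 1.92 and the log2 difference -2.80 (SE 0.72, 95% interval -4.41 to -1.19). H2BC4 stood at 158, 161 and 125 with 2-APB, at 536, 663 and 694 with SKF-96365 and at 117, 137 and 632 in the controls (log2 difference -2.08, SE 0.51). H2BC8 stood at 161, 129.7 and 101 against 479.6, 640.4 and 705, with controls at 115, 70.0 and 766 (-2.22, SE 0.68). H2BC7 was lower, at 14.3, 10.3 and 5.92 against 50.7, 128 and 135, with controls at 24.2, 16.2 and 121 (-3.19, SE 0.68). In each of these genes SKF-96365 1 was the lowest of its group, and control 3 lay near SKF-96365 2 and 3. H1-2, a linker histone gene of the chromosome 6 cluster, stood at 329, 320.3 and 350.1 against 686, 728 and 789.7, and here SKF-96365 1 lay close to the other libraries of its group (-1.14, SE 0.34).

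Of 13 tested H2B genes and pseudogenes, 10 were separated and all 10 were higher with SKF-96365. Among them were 2 pseudogenes, H2BC19P and H2BC20P, whose reads may come from their coding copies. Further members were H2BC18 on chromosome 1, at 23.0, 24.1 and 11.8 against 47.2, 167 and 167 (-2.48, SE 0.81), and H2BC26 (-2.21, SE 0.86). H2BC12 did not separate the compounds. It was the highest member, at 1617, 1568 and 1169 with 2-APB and 1452, 1547 and 1698 with SKF-96365 (-0.12, SE 0.14). H2BC5 overlapped too (-0.95, SE 0.45), as did H2BC17, which was at 12.1 or less in all 9 libraries. The octamer was found in 7 of the 8 separated H2B genes that had a promoter window, and also in H2BC12 and H2BC17, which overlapped. Letters in this window therefore did not divide separated from overlapping H2B genes. The wider list of core and linker histones had 9 of 21 tested members higher with SKF-96365 and 3 higher with 2-APB, against 8.79% and 8.21% of all genes tested, with a median log2 difference of -0.53 against 0.01 over all genes. The 3 higher with 2-APB were H3-3A, a replacement histone gene with polyadenylated messages, the variant gene H2AX, and H4C3. The list was written with earlier results of these data known, as were all lists below.

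**Figure D1:**
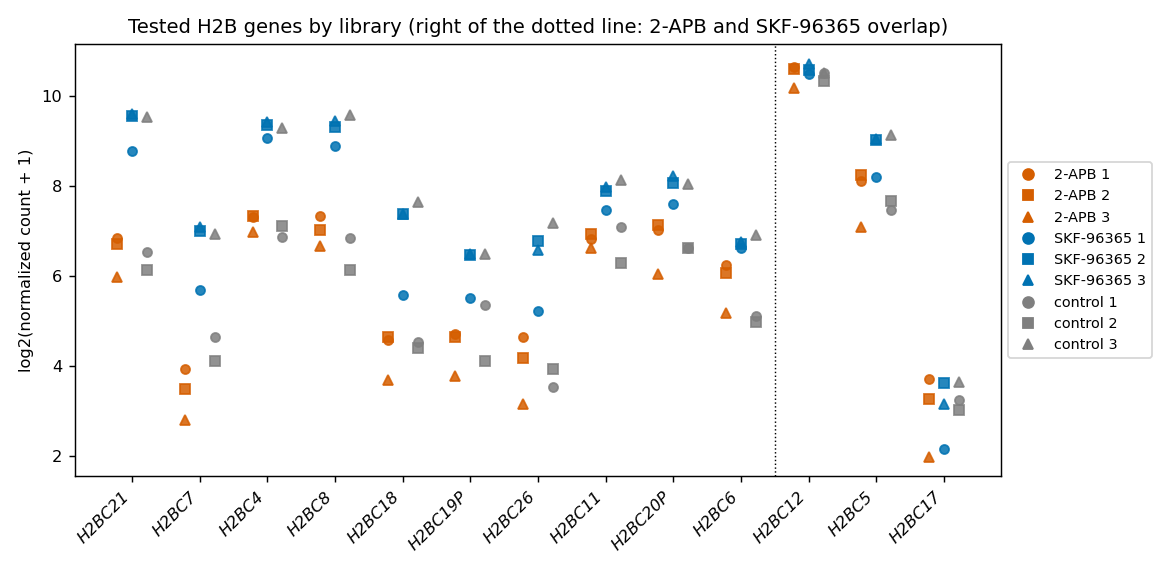
Normalized counts of the 13 tested H2B genes and pseudogenes, as log2(value + 1), in each of the 9 libraries (orange, 2-APB; blue, SKF-96365; grey, control; the marker shape gives the library number). In the 10 genes left of the dotted line every SKF-96365 library is above every 2-APB library, and control 3 is high with them. H2BC12, H2BC5 and H2BC17 overlap.

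In fits of limma on the 6 libraries of both compounds alone, H2BC21 (adjusted p = 0.0431), H1-2 (0.0331), H2BC4 (0.0148) and H2BC8 (0.0331) were called. Without control 3 in the fit of the spread, limma called the same 4 genes, with adjusted p of 0.014, 0.014, 0.00349 and 0.019. The log2 differences are those given above, since the controls enter only the spread. With all 9 libraries none of the 4 passed, at an adjusted p in limma of 0.684.

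The 12 widest gaps on the SKF-96365 side among genes with a mean of at least 50 also held 6 genes outside the histones. IL24, a cytokine of the interleukin-10 family, stood at 121, 129 and 149.9 with 2-APB, at 488, 1529.6 and 1603 with SKF-96365 and at 198, 100.4 and 1677 in the controls. The groups did not overlap, and SKF-96365 1 lay between the 2-APB libraries and the other SKF-96365 libraries (log2 difference -2.99, SE 0.85). GEM, a small GTPase that restrains voltage-gated calcium channels, stood at 95.4, 100.5 and 86.8 against 240.2, 401 and 429 (-1.87, SE 0.51). GDF15, a stress-induced cytokine, stood at 536, 558 and 389 against 1138, 4463 and 4444, with controls at 404, 298 and 4829.6. Its gap was 1.03 and its log2 difference -2.53 (SE 0.90), which became -3.19 without SKF-96365 1. PDCD1LG2, a ligand of the checkpoint receptor PD-1, stood at 30.7, 26.6 and 24.7 against 57.7, 83.3 and 79.4 (-1.38, SE 0.44). SEMA4A, a semaphorin, stood at 24.1, 35.2 and 31.6 against 74.3, 69.9 and 82.3 (-1.30, SE 0.57), and here SKF-96365 1 lay between the other libraries of its group. ABI3BP, which encodes a matrix protein, stood at 345, 355 and 331 against 604, 1613 and 1503 (-1.72, SE 0.53).

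Gaps on the 2-APB side were narrower, from 0.50 to 0.61 in the 12 genes with the widest gaps and a mean of at least 50. FAM111B, a protease gene with cell cycle dependent levels, stood at 957, 916 and 1455 with 2-APB, at 618, 227 and 216 with SKF-96365 and at 1542, 871 and 233 in the controls. SKF-96365 1 was the SKF-96365 library nearest to 2-APB by a wide margin (log2 difference 1.79, SE 0.61). FKBPL, an immunophilin-like cochaperone, stood at 141, 159 and 162 against 81.2, 71.96 and 92.3 (0.91, SE 0.28). METTL7B, a thiol methyltransferase gene, stood at 163, 152 and 126 against 83.9, 74.0 and 64.5, with all 3 controls between 83.5 and 117 (0.98, SE 0.20). INKA2, an inhibitor of the kinase PAK4, stood at 115, 112 and 78.9 against 52.4, 38.0 and 26.8 (1.39, SE 0.43). GDA, guanine deaminase, stood at 126, 85.02 and 80.9 against 55.03, 50.4 and 14.9, and rested in part on SKF-96365 3, without which its log2 difference went from 1.43 to 0.84. The developmental transcription factor genes PAX2 and LHX4 were in this set, with PAX2 at 112, 109 and 114 against 52.4, 77.1 and 55.6 (0.87, SE 0.26). LHX4 stood at 168, 174 and 189 against 116, 118 and 115 (0.60, SE 0.23), tight within each compound. ZNF85 (1.01), SERTAD4 (1.10) and KIF26A (0.85) made up the rest together with TUBB and PRIM1, described below.

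**Figure D2:**
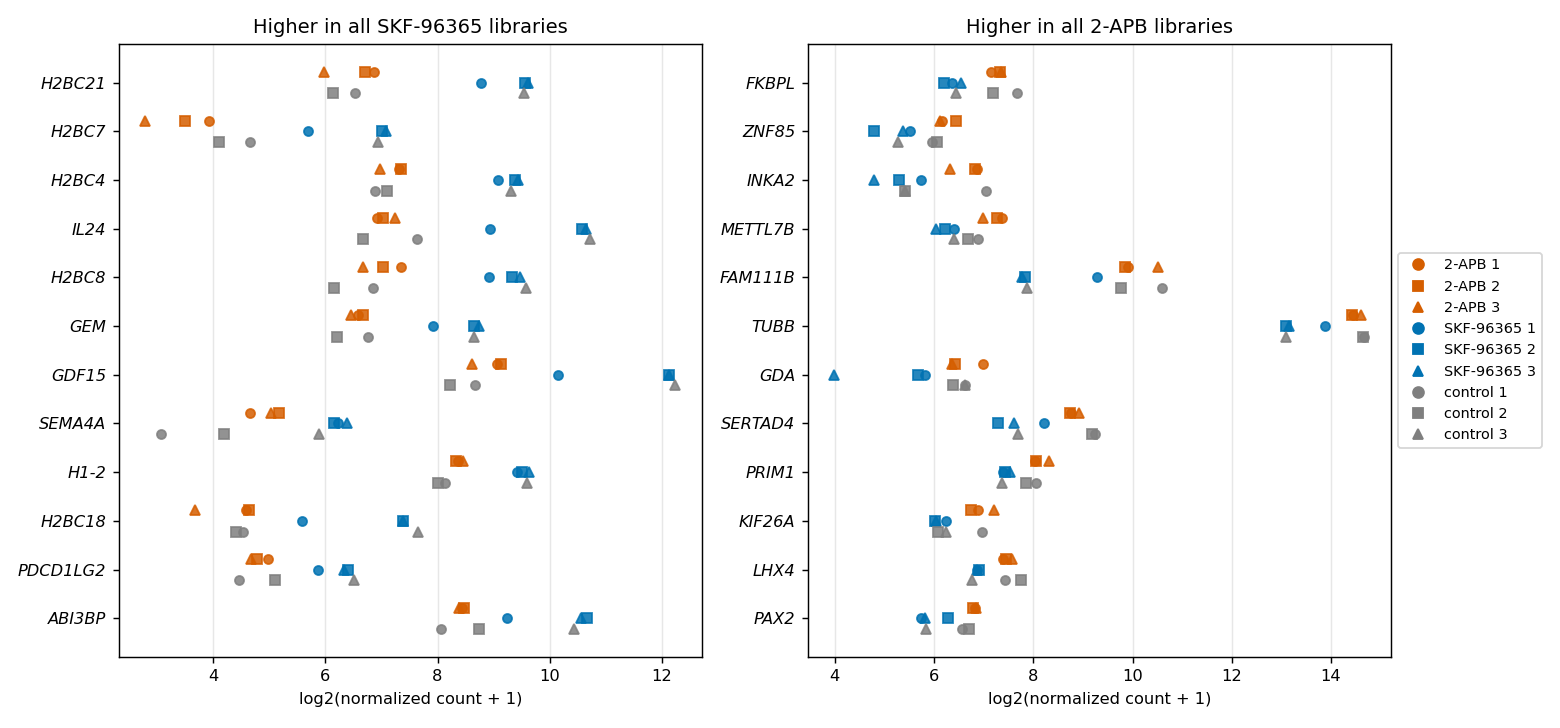
Levels of the 12 genes with the widest gap in each direction among genes with a mean of at least 50, as log2(normalized count + 1) on the horizontal axis, with all 9 libraries shown (orange, 2-APB; blue, SKF-96365; grey, control; the marker shape gives the library number). On the left the blue points lie above the orange ones by gaps up to 1.92, with SKF-96365 1 often nearest to 2-APB and control 3 among SKF-96365 2 and 3. On the right the gaps of these 12 are at most 0.61; lower genes with wider gaps, such as MPHOSPH8, are not drawn.

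Genes of the proteins through which both compounds are thought to act gave narrow gaps or overlapped. TRPV2 itself stood at 95.4, 102 and 137 with 2-APB, at 169, 209 and 188 with SKF-96365 and at 112, 51.7 and 191 in the controls. The compounds did not overlap, but the controls spanned nearly the whole range. The gap of 0.30 was within counting error, and the log2 difference was -0.76 (SE 0.38, 95% interval -1.62 to 0.09, limma adjusted p = 0.694). TRPV1, the capsaicin receptor, stood at 143, 141 and 143 against 118, 115 and 127 (0.24, SE 0.15). ITPR3, an inositol trisphosphate receptor, stood at 4001, 4069 and 5904 against 6443, 7183 and 7123 (-0.59, SE 0.16), with 2-APB 3 nearest to the SKF-96365 libraries. ORAI2, a subunit of the store-operated channel, stood at 1200.4, 1212 and 1219.8 against 1092, 1127 and 1029.7 (0.16, SE 0.11). Libraries of both compounds overlapped for the other inositol trisphosphate receptor genes ITPR1 and ITPR2, the calcium sensors STIM1 and STIM2, the channel subunits ORAI1 and ORAI3, and the channels TRPM7 and TRPC1. Their log2 differences ran from -0.47 in ORAI3 (SE 0.50) to 0.09 in STIM2 (SE 0.16). For STIM1 the 95% interval was -0.67 to 0.16 and for ORAI1 -0.37 to 0.41, so that these data do not show equal levels. TRPV3 and TRPV4 were at most 6.01 and 7.67 and were not tested. Of 11 tested TRP channels 1 was separated with 2-APB higher and 2 with SKF-96365 higher, of 16 store-operated entry genes 1 and 1, and of 15 calcium pumps and exchangers 1 and 1. These counts are too small to set apart from the shares over all genes, 8.21% and 8.79%.

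Immediate early and calcium-responsive genes lay on the SKF-96365 side. Of 26 tested members 14 were higher in all 3 SKF-96365 libraries and 0 in all 3 2-APB libraries, against 8.79% and 8.21% of all genes, and the median log2 difference was -0.55 against 0.01. None passed limma's adjusted test. ATF3, a stress-induced bZIP factor, stood at 169.9, 148 and 122 with 2-APB, at 266, 359 and 306 with SKF-96365 and at 119, 129 and 344 in the controls (-1.08, SE 0.35). IER3, an early response survival gene, stood at 411, 442 and 704 against 1091, 923 and 883 (-0.93, SE 0.33), and KLF4, a zinc finger factor, at 44.9, 38.7 and 57.2 against 69.9, 84.3 and 86.3 (-0.77, SE 0.40). IER3 was highest in SKF-96365 1, the library that lay nearest to 2-APB in most separated genes. Also separated were the AP-1 subunit genes JUN, JUNB, FOSB and FOSL2, the nuclear receptor genes NR4A1 and NR4A3, and RCAN1, an inhibitor of calcineurin that calcium-NFAT signalling is known to induce.

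Genes listed for MAP kinase feedback lay the same way. Most of them dephosphorylate MAP kinases or restrain the signalling above them, but the list also holds the receptor EPHA2, ETV4, ETV5, PHLDA1 and PHLDA2. Of 19 tested members 8 were higher with SKF-96365 and 0 with 2-APB, against 8.79% and 8.21% of all genes. The median log2 difference was -0.24. EPHA2 and PHLDA1 were among the 8, while DUSP6, DUSP7, SPRY4, SPRED1 and SPRED2 overlapped. DUSP5, a nuclear phosphatase of ERK, stood at 408, 368 and 607 with 2-APB, at 935, 1472 and 1586 with SKF-96365 and at 623, 442 and 1510.0 in the controls (-1.52, SE 0.40). DUSP1 stood at 1022, 1139 and 1214 against 1703, 2636 and 2876 (-1.06, SE 0.31). SPRY2, a Sprouty inhibitor of receptor tyrosine kinase signalling, stood at 359.6, 365 and 353 against 543, 526 and 481 (-0.52, SE 0.13). The SPRY2 levels were tight within each compound, and control 3, at 507, lay among the SKF-96365 libraries.

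NF-kB and inflammatory genes were higher with SKF-96365 in 9 of 24 tested members and with 2-APB in 0, against 8.79% and 8.21% of all genes. The median log2 difference was -0.64, against 0.01 over all genes. CXCL2, a neutrophil chemokine, stood at 74.5, 80.7 and 302 with 2-APB, at 516, 475 and 508 with SKF-96365 and at 307, 92.3 and 475 in the controls. 2-APB 3 lay nearer to the SKF-96365 libraries than to 2-APB 1 and 2 (-2.02, SE 0.61). TNFAIP3, the NF-kB feedback inhibitor A20, stood at 145, 123 and 219.9 against 411, 343 and 345 (-1.21, SE 0.36), and the cytokine gene IL1A at 114, 112 and 191 against 299.6, 263 and 307 (-1.10, SE 0.47). In CXCL2 and TNFAIP3 the highest library was again SKF-96365 1. The others separated were IL1B, CCL20, IL6, NFKBIA, ICAM1 and LIF. Promoters of CXCL2 and TNFAIP3 are shown because both are known NF-kB targets. They are the 100 bases before the RefSeq start on GRCh38.p14, chr4:74099196-74099295 (minus strand) and chr6:137867159-137867258 (plus), with matches to the kappaB consensus on either strand in capitals.
CXCL2: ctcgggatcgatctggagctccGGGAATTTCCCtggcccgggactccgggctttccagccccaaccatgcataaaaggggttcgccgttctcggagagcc
TNFAIP3: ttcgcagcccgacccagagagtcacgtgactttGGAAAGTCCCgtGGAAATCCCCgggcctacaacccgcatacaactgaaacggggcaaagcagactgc
Each holds 2 matches, which overlap in CXCL2. A match was found in 5 of the 8 separated members with a window, in 8 of the 12 other tested members with a window and in 9.96% of all windows. The match did not divide members that separated the compounds from those that overlapped.

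DNA replication genes lay on the 2-APB side. Of 40 tested members 16 were higher in all 3 2-APB libraries and 0 in all 3 SKF-96365 libraries, against 8.21% and 8.79% of all genes. The median log2 difference was 0.62 against 0.01 over all genes, and 39 of the 40 differences were positive. PRIM1, the small subunit of primase, stood at 261, 265 and 319 with 2-APB, at 167, 171 and 183 with SKF-96365 and at 264, 231 and 164 in the controls (0.69, SE 0.19). MCM2, a subunit of the replicative helicase, stood at 1736, 1733 and 1957 against 1305, 1164 and 1188 (0.57, SE 0.23). POLA1, the catalytic subunit of DNA polymerase alpha, stood at 1162, 1233 and 1273 against 931, 859 and 794 (0.51, SE 0.19). For these 3 genes control 1 and 2 were nearer to the 2-APB libraries, and control 3 was within the range of the SKF-96365 libraries or below it. The other separated members included the helicase genes MCM3, MCM4, MCM5 and MCM6, the sliding clamp PCNA, the cyclins CCNE1 and CCNE2, thymidylate synthase TYMS and the ligase LIG1. The promoter of POLA1, the 150 bases at chrX:24693768-24693917 (plus strand, RefSeq start, GRCh38.p14), is shown with a match to an E2F site in capitals, since E2F factors are known to switch on replication genes.
POLA1: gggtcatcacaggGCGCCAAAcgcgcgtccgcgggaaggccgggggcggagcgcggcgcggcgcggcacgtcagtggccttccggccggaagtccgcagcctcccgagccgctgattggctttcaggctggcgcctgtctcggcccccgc
The letters searched were TTTGGCGC or TTTCCCGC on both strands. They were found in 9 of 12 separated replication members with a window, in 6 of 22 other tested members with a window and in 1.93% of all windows, which is a description of these lists. The match in POLA1 is on the opposite strand.

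Tubulin genes, which encode the subunits of microtubules, were higher with 2-APB in 9 of 15 tested members and higher with SKF-96365 in 0. The shares over all genes were 8.21% and 8.79%. The median log2 difference of the list was 0.83. TUBB stood at 22376, 21958 and 25010.3 with 2-APB, at 15005, 8681 and 9114 with SKF-96365 and at 26155, 25772 and 8793 in the controls. SKF-96365 1 lay between the 2-APB libraries and the other SKF-96365 libraries (1.12, SE 0.38). TUBB2B stood at 584, 666 and 476 against 356, 322 and 286 (0.83, SE 0.26), and TUBA1A at 1961, 2046 and 1586 against 1309, 926 and 959 (0.82, SE 0.22). Tubulin genes are close paralogs, so reads may have been split between them. Mitosis genes did not stand out by separation from the shares over all genes, with 3 of 34 higher with 2-APB and 1 with SKF-96365. Even so, 28 of the 34 differences were positive (median 0.10). TOP2A, which untangles chromosomes before division, stood at 15254, 15769 and 15387 against 11898, 12129 and 13097 (0.32, SE 0.19), while for CDK1 the lowest 2-APB library (1741) was barely above the highest SKF-96365 library (1721).

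p53 targets were higher with SKF-96365 in 9 of 24 tested members and with 2-APB in 1, TP53I3 (median -0.29). The shares over all genes were 8.79% and 8.21%. CDKN1A, the cell cycle inhibitor p21, stood at 3740.3, 3878 and 4765 with 2-APB, at 6236, 7898 and 7824 with SKF-96365 and at 3984, 4592 and 8037 in the controls (-0.83, SE 0.23). GADD45A, a growth arrest gene, stood at 1588, 1548 and 2230.5 against 2659, 4679 and 5242 (-1.19, SE 0.41), and GDF15, given above, belongs to this list too. MDM2, SESN2 and PLK3 were among the other separated members. BTG2 is counted both here and with the immediate early genes, and SESN2 both here and with the ATF4 targets.

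Lysosome and autophagy genes were higher with SKF-96365 in 10 of 32 tested members and with 2-APB in 0 (median -0.32). The shares over all genes were 8.79% and 8.21%. CTSL, a lysosomal protease, stood at 2336, 2364 and 2663 with 2-APB and at 3597, 5099 and 5396 with SKF-96365, with controls at 3788, 2832 and 5014 (-0.92, SE 0.21). MAP1LC3B, the autophagosome marker LC3B, stood at 1078, 1099 and 1038 against 1357, 1375 and 1451 (-0.38, SE 0.13). NPC1, the lysosomal cholesterol exporter, stood at 4300.5, 4362 and 3886 against 5333, 13290.3 and 12783 (-1.21, SE 0.39), with SKF-96365 1 close to the 2-APB libraries. Cholesterol synthesis and uptake genes separated in 0 of 26 in either direction.

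Several stress and metabolic genes of other lists were higher with SKF-96365. HMOX1, heme oxygenase, stood at 1822, 1769 and 1845 against 2865, 5108 and 4945 (-1.20, SE 0.35). Only 3 of 24 NRF2 and pentose phosphate genes (12.5%) were separated, against 17% of all genes. PLIN2, a lipid droplet coat protein gene, stood at 652, 642 and 649 against 977, 1474 and 1653 (-1.04, SE 0.29), and the glucose transporter SLC2A3 at 1224, 1203 and 903 against 1529.6, 3039 and 3005 (-1.13, SE 0.49). Among ATF4 targets the list was divided, with 4 of 30 higher with 2-APB and 5 with SKF-96365, against 8.21% and 8.79% of all genes. DDIT3, the stress factor CHOP, stood at 169, 184 and 169 against 243, 354 and 367 (-0.86, SE 0.40), and CEBPB at 134, 120.2 and 187 against 256, 424 and 433 (-1.31, SE 0.39). SLC1A4, an amino acid transporter, was on the other side at 331, 349.5 and 347 against 249.8, 255 and 249 (0.45, SE 0.17). NR1D1, the clock repressor REV-ERB alpha, stood at 117, 129 and 137 against 206, 317 and 353 (-1.15, SE 0.43), and 4 of 18 clock genes were separated, all 4 higher with SKF-96365. That is 22.2% of the list, against 17% of all genes in either direction and 8.79% in this one.

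Of 20 keratin and junction genes 6 were higher with 2-APB and 3 with SKF-96365, against 8.21% and 8.79% of all genes. KRT18 stood at 48575, 46296 and 46306 against 38311, 32909.6 and 34301 (0.42, SE 0.16), while the tight junction gene CLDN1 stood at 586, 579 and 618 against 799, 1105 and 1187 (-0.77, SE 0.18). The widest gap of the list, 0.94, was that of the keratin gene KRT17, at only 21.9, 24.9 and 18.7 against 8.74, 9.25 and 2.98 (1.63, SE 0.47), named after its values were seen. Listed mesenchymal genes were separated in 5 of 26, all 5 higher with SKF-96365. Among them was SNAI2 at 48.2, 62.7 and 43.4 against 91.7, 99.7 and 115 (-0.99, SE 0.61), with controls from 14.2 to 111. The fibroblast marker THY1, outside this list, was separated the other way, at 903, 916 and 800 against 738, 768 and 763. The mesenchymal markers COL1A1 and VIM overlapped. Integrin genes were separated in 3 of 15, all 3 higher with SKF-96365, with the collagen receptor subunit ITGA2 at 467, 517 and 577 against 796, 795 and 837 (-0.64, SE 0.25). The mesenchymal share of 19.2% and the integrin share of 20% were near the 17% of all genes separated in either direction, though above the 8.79% higher with SKF-96365. Interferon-stimulated genes were higher with SKF-96365 in 8 of 28 and with 2-APB in 1, against 8.79% and 8.21% of all genes. IFIT2, an antiviral RNA-binding protein gene, stood at 1097, 1103 and 1287 against 1458, 1908 and 2115 (-0.64, SE 0.24), with control 2, at 1499, inside the SKF-96365 range.

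**Figure D3:**
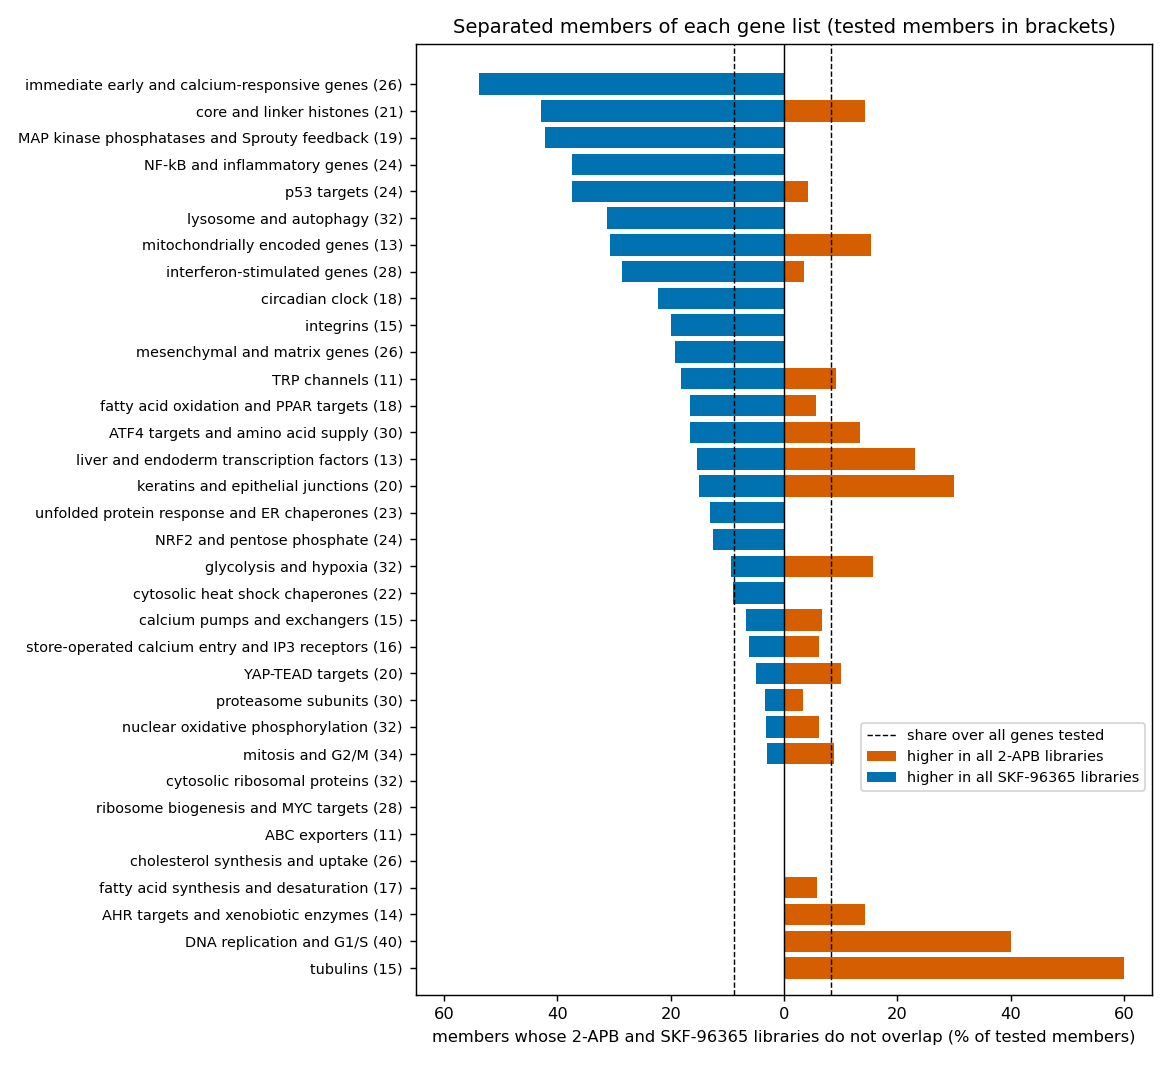
Share of tested members of each gene list with at least 10 of them (number in brackets) that separated the compounds, in percent, with genes higher with SKF-96365 to the left (blue) and higher with 2-APB to the right (orange). The dashed lines mark 8.79% and 8.21%, the shares over all 17492 genes tested. Immediate early, histone, MAP kinase feedback, NF-kB and p53 genes reach farthest to the left, and tubulin and DNA replication genes farthest to the right.

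Mitochondrially encoded genes, which together took a like share of every library, were divided by gene. Of 13 tested, 2 were higher with 2-APB and 4 with SKF-96365, against 8.21% and 8.79% of all genes. MT-ND4 and MT-CO1, which encode respiratory chain subunits, were higher in all 3 SKF-96365 libraries, and MT-CO3 was higher in all 3 2-APB libraries. MT-CO3 stood at 91568, 92952 and 80118 against 76647, 69365 and 63538 (0.34, SE 0.15). MT-CO1 stood at 329732, 327360.0 and 304897 against 338706, 381516 and 379216 (-0.19, SE 0.19), and after quantile normalization its difference was 0.00 and 1 of the list's members, in place of 4, was higher with SKF-96365. Ribosomal protein genes (32), ribosome biogenesis genes (28) and ABC exporter genes (11) held 0 separated members, against 17% of all genes. For a list as short as the ABC exporters, 0 says little. RPL4 stood at 25081, 24927 and 28079 against 28056, 22971 and 23737 (0.07, SE 0.13, 95% interval -0.23 to 0.36).

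The position of single libraries bears on all of these counts. On a scale where the mean of the 2-APB libraries is 0 and that of the SKF-96365 libraries is 1, over the 2973 separated genes the median position was 0.71 for SKF-96365 1, 1.13 for SKF-96365 2 and 1.14 for SKF-96365 3. The controls, which did not enter the choice of genes, were divided. Control 1 and 2 had a median of 0.03 each, and control 3 had 1.04. Control 3 lay on the SKF-96365 side of the midpoint in 80.6% of the separated genes, control 1 in 27.4% and control 2 in 31.6%. In 712 (49.6%) of the genes higher with 2-APB and 721 (46.9%) of those higher with SKF-96365, control 1 and 2 lay with 2-APB and control 3 with SKF-96365. In 650 (45.3%) and 737 (48.0%), SKF-96365 2, SKF-96365 3 and control 3 lay beyond all of the other 6 libraries. The separated genes thus include many in which 1 untreated library stood with SKF-96365, and what sets control 3 apart from the other controls was not tested.

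**Figure D4:**
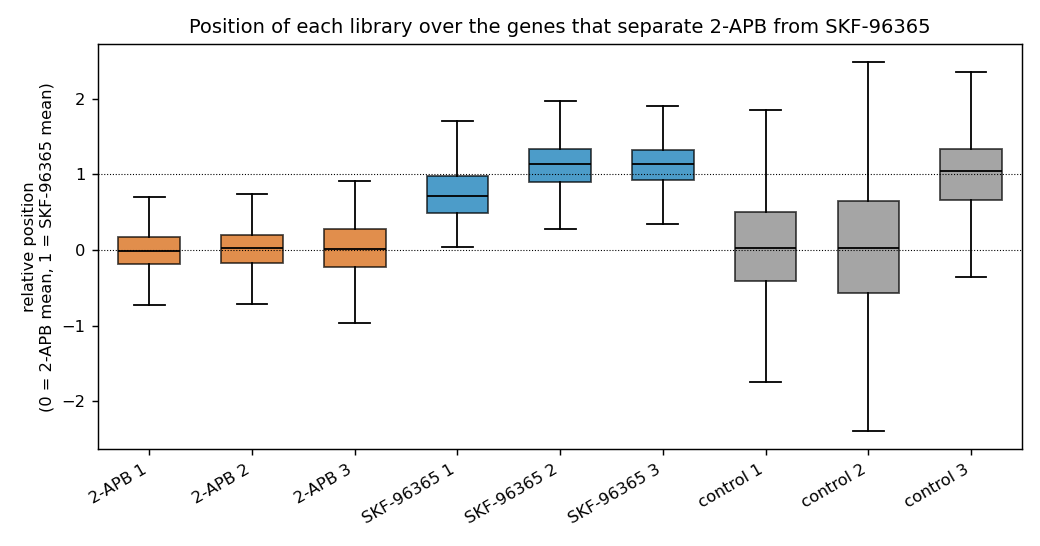
Relative position of each of the 9 libraries over the 2973 separated genes, where 0 is the mean of the 2-APB libraries and 1 the mean of the SKF-96365 libraries. Boxes give the quartiles, the line the median and whiskers values within 1.5 interquartile ranges, with points beyond not drawn. SKF-96365 1 has a median of 0.71, control 1 and 2 of 0.03 and control 3 of 1.04.

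SKF-96365 1 set the gap in most separated genes. It was the SKF-96365 library nearest to 2-APB in 64.7% of them, and 2-APB 3 was the 2-APB library nearest to SKF-96365 in 39.4%. Left out, it raised the separated genes to 4765 higher with 2-APB (27.2%) and 4558 higher with SKF-96365 (26.1%), in part because a smaller set overlaps less often by construction. Lists moved by unequal numbers of members. With 2-APB higher, DNA replication members went from 16 to 39 of 40, mitosis members from 3 to 26 of 34 and ribosome biogenesis members from 0 to 22 of 28. With SKF-96365 higher, lysosome genes went from 10 to 26 of 32, mesenchymal genes from 5 to 20 of 26 and cholesterol genes from 0 to 15 of 26. With SKF-96365 higher, immediate early genes went from 14 to 16 of 26, MAP kinase feedback genes from 8 to 9 of 19 and NF-kB genes from 9 to 11 of 24. Members of these 3 lists with 2-APB higher, 0 with all 6 libraries, then numbered 1, 2 and 4, so that the NF-kB genes no longer lay on 1 side only.

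The mean level of each list, taken per library as log2 distance from the mean of the 9 libraries, gives the place of each library. For NF-kB genes it was -0.60, -0.59 and 0.23 with 2-APB and 0.63, 0.33 and 0.33 with SKF-96365, so that SKF-96365 1 was the highest of its group. For MAP kinase feedback genes it was -0.36, -0.33 and 0.05 against 0.32, 0.18 and 0.16, again highest in SKF-96365 1. For DNA replication genes it was 0.08, 0.08 and 0.57 with 2-APB and 0.10, -0.58 and -0.56 with SKF-96365, so that the list's mean overlapped between the compounds although 16 members did not. For tubulins it was 0.33, 0.26 and 0.31 against 0.03, -0.62 and -0.69, with no overlap. SKF-96365 1 thus lay fully with its group for immediate early, NF-kB and MAP kinase feedback genes by this mean. It lay part of the way for tubulins and most H2B genes, and inside the 2-APB range for replication genes. 2-APB 3 was the 2-APB library nearest to SKF-96365 in the NF-kB, MAP kinase feedback and immediate early lists, where its score was -0.04 against -0.29 and -0.47.

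**Figure D5:**
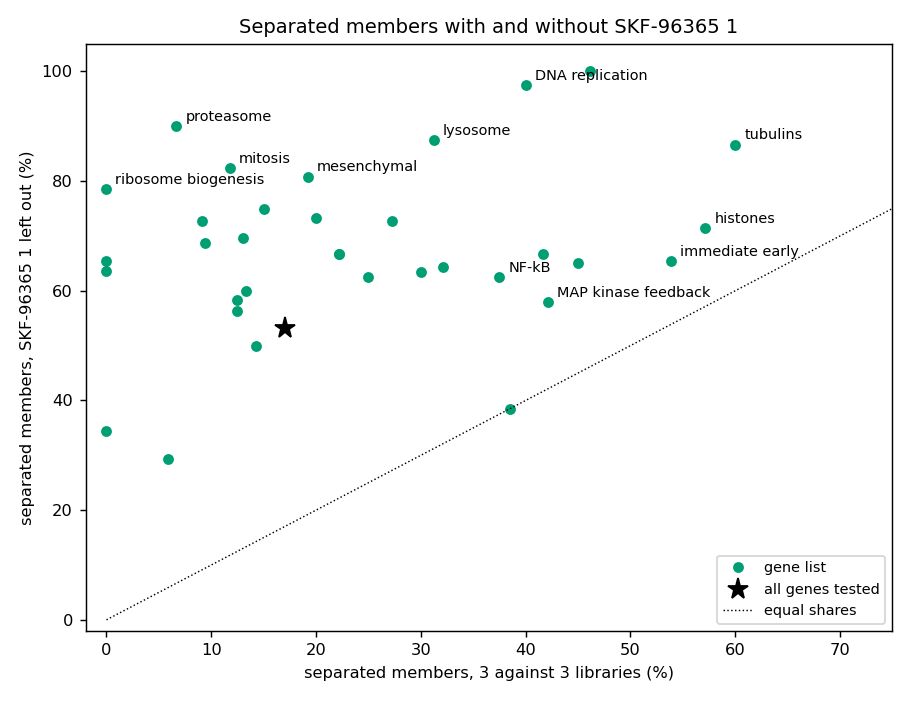
Percent of tested members of each gene list that separated the compounds in either direction, with all 6 libraries (horizontal) and with SKF-96365 1 left out (vertical). The star marks all genes tested, at 17% and 53.3%, and the dotted line marks equal shares. Immediate early genes move from 53.8% to 65.4% and NF-kB genes from 37.5% to 62.5%, while DNA replication genes move from 40.0% to 97.5% and proteasome genes from 6.7% to 90.0%.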

How the data were processed

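The deposited table holds 61093 genes by 9 libraries as a normalized signal: gene counts that the authors divided by DESeq2 size factors, per the name of the deposited table and the submitters' processing notes, with no version. Aligner, counter, genome build and strand setting are not given in the sources used here. Values were whole multiples of a step in every library (within 0.001 of a read), and whole reads were recovered for 8 libraries. The step of SKF-96365 3, 0.992, was too near 1 to be certain. PCR copies may be counted as separate molecules, so errors cover counting only.

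Compounds were compared with limma 3.58.1 (R 4.3.3, trended prior, two-sided) on log2(value + 1). A gene was tested when 3 or more of the 9 libraries reached 10, which left 17492, and all 9 libraries shared 1 spread per gene, with Benjamini-Hochberg adjustment over all genes at 0.05. Alternatives were pseudocounts of 0.5 and 5, other filters and scalings, other settings of the spread, only the 6 libraries compared, a replicate block, leaving out libraries, and edgeR 4.0.16 and DESeq2 1.42.0. Same-numbered libraries did not deviate together (r = -0.292, 0.216 and -0.352), so numbers were not taken as pairs.

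Symbols were found for 60593 genes, 130 of them from GENCODE 29. Named genes were the 12 with the widest gap in each direction among separated genes with a mean of at least 50, up to 3 separated members of each of 37 lists (the highest member where none was separated), 5 in each direction with all controls between the compounds, and the known targets. A few genes are not reported here. Members, lists and rules were chosen with earlier results of these data known.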

Additional observations from a re-analysis of the deposited data

Results flagged for a closer look

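Of the 17492 genes tested, all 3 controls lay between the compounds, with no overlap of any groups, in 9 with 2-APB higher and 20 with SKF-96365 higher. In these few genes the compounds stood on opposite sides of the control libraries. Whether unordered libraries would give as many was not tested. The opposite direction is what flagged the 10 named here. The difference of the 2 responses was tested only as the contrast between the compounds, which none of them passed (limma adjusted p of 0.684, and 0.7 for TRPV1), and the movement of each compound against the controls was not tested as a pair.

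With 2-APB higher, RNF207, a cardiac ubiquitin ligase gene, had a log2 difference of 0.65, with 742, 809 and 761 with 2-APB, 711, 731 and 550.0 in the controls and 535, 490.3 and 453 with SKF-96365. TMEM44-AS1 (0.51), an antisense RNA gene whose reads cannot be told from those of TMEM44 if counting ignored strand, ZNF671 (0.45), ACACB (0.39), which encodes acetyl-CoA carboxylase 2, and TRPV1 (0.24) lay the same way. With SKF-96365 higher were FMNL2 (-0.49), a formin that builds actin filaments, SUCO (-0.45), SLC46A3 (-0.43), a lysosomal transporter, MGAT5 (-0.42), a glycosyltransferase, and MAPK6 (-0.37), the atypical kinase ERK3. FMNL2 stood at 3112, 3186 and 3351 with 2-APB, 3779.8, 3696 and 4229 in the controls and 4356, 4614 and 4578 with SKF-96365. The smaller of each gene's 2 gaps to the controls was 0.005 to 0.063 log2 units, so that the order rests on narrow distances.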

How the results depend on the processing

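The counts of called genes, 0 with 2-APB higher and 0 with SKF-96365 higher, held under the other pseudocounts, filters, scalings and settings of the spread. With SKF-96365 higher, limma called 4 genes on the 6 libraries alone, and DESeq2 called 1. Leaving out each library gave 0 with 2-APB higher and 0 to 4 with SKF-96365 higher, the 4 without control 3. With the replicate number as a block the counts were 0 and 0 (smallest adjusted p 0.203, 1259 genes unadjusted), and 0 of 6 libraries correlated best with their own number. After the data were seen, fits without SKF-96365 1 and control 3 gave 1126 and 1157 calls, and without 2-APB 3 as well 1232 and 1343. These libraries were left out because they stood with other labels, so these p-values are optimistic.

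Separated genes numbered 1811 to 4765 with 2-APB higher and 1837 to 4558 with SKF-96365 higher when each library was left out (2666 and 2607 without 2-APB 3, the most without SKF-96365 1), and 5981 and 5607 without SKF-96365 1 and 2-APB 3. Upper-quartile rescaling gave 1291 and 1638, and quantile normalization 1579 and 1415. Of 121 named genes 118 kept the sign of their difference in every alternative. Most of them were chosen because their libraries do not overlap. For such genes, leaving out libraries or refitting the spread cannot turn the sign, so this count is no support for the differences. ORAI1, at 0.02, ran from -0.14 without 2-APB 3 to 0.15 without 2-APB 2, and was -0.02 without SKF-96365 3, -0.00 without SKF-96365 2 and in DESeq2, -0.01 in edgeR and -0.07 without SKF-96365 1, 2-APB 3 and control 3. ABCC2 ran from -0.51 without SKF-96365 1 to 0.06 without 2-APB 3. MT-CO1 was 0.00 after quantile normalization.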

Other observations

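Further gene lists held separated genes in both directions or few of them, against 8.21% of all genes higher with 2-APB and 8.79% higher with SKF-96365. Glycolysis and hypoxia genes were divided, with 5 of 32 higher with 2-APB and 3 higher with SKF-96365. The 5 were ANKRD37 and the glycolytic enzyme genes LDHA, GAPDH, PKM and ALDOC, while the glucose transporter genes SLC2A1 and SLC2A3 were on the other side. SLC2A1 stood at normalized counts of 2258, 2249 and 2590.4 with 2-APB and at 2843, 2920.4 and 2840.2 with SKF-96365 (log2 difference -0.28, SE 0.12). Of 18 fatty acid oxidation genes 1 was higher with 2-APB and 3 with SKF-96365. CPT1A, which carries fatty acids into mitochondria, stood at 2297, 2287 and 2672 against 3067, 3354 and 3355 (-0.43, SE 0.16). Its partner CPT2 lay the other way, at 201, 191 and 189 against 182, 144 and 134 (0.35, SE 0.21). Of 17 fatty acid synthesis genes 1, ACACB, was separated. Without SKF-96365 1 the separated share in either direction rose from 25% to 62.5% of the glycolysis and hypoxia genes (14 higher with 2-APB, 6 with SKF-96365), from 22.2% to 66.7% of the fatty acid oxidation genes (4 and 8) and from 5.9% to 29.4% of the fatty acid synthesis genes (1 and 4), while that of all genes rose from 17% to 53.3%.

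The lists that follow are set against the same shares, 8.21% of all genes higher with 2-APB and 8.79% higher with SKF-96365. Unfolded protein response genes were higher with SKF-96365 in 3 of 23 and with 2-APB in 0. ERN1, the sensor IRE1 alpha, stood at 242, 258 and 246 against 346, 306 and 344 (-0.42, SE 0.18). Cytosolic heat shock genes were higher with SKF-96365 in 2 of 22, by log2 gaps between the nearest libraries of 0.03 in HSPA4L and 0.02 in HSF2, and with 2-APB in 0. Most of the list leaned the other way, with 15 of 22 differences positive (median 0.12). Among AHR targets and xenobiotic enzymes 2 of 14 were higher with 2-APB, and the drug oxidase gene CYP3A5 stood at 150.2, 162 and 166 against 124, 97.7 and 83.3 (0.66, SE 0.25). YAP-TEAD targets gave 2 of 20 higher with 2-APB and 1 with SKF-96365. Proteasome genes gave 1 of 30 each way, nuclear oxidative phosphorylation genes 2 and 1 of 32, liver transcription factors 3 and 2 of 13, and metallothionein and zinc genes 0 and 2 of 8. Without SKF-96365 1, 27.2% of all genes were higher with 2-APB and 26.1% with SKF-96365, and list counts near these shares say little about a list. In that setting 13 of 22 heat shock genes were higher with 2-APB and 3 with SKF-96365. So were 26 and 1 of 30 proteasome genes and 21 and 1 of 32 oxidative phosphorylation genes. The counts were 6 and 10 of 23 for the unfolded protein response, 4 and 3 of 14 for AHR and xenobiotic genes and 5 and 10 of 20 for YAP-TEAD targets. They were 0 and 3 of 8 for metallothionein and zinc genes, and still 3 and 2 of 13 for liver transcription factors. None of these genes passed limma's adjusted test.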
